A study of Homo sapiens with 12 samples.

Results

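Depletion of RNA polymerase I was set directly against depletion of RNA polymerase II in HCT116, an established line from a human colorectal carcinoma, with 3 total RNA libraries on each side out of the 12 in the series. Each library is 1 separately treated dish of a single day, so each p-value reflects only how dishes varied. In the POLR1A-depleted group the genotype is POLR1A-AID1, an endogenous POLR1A with an auxin-inducible degron, and OsTIR1, the adaptor that the degron needs, was induced with 1 µg/ml doxycycline beginning 24 h ahead of the auxin IAA at 500 µM. The POLR2A-depleted group is the line HCT116-POLR2A-AID2 with 1 µM 5-Ph-IAA, and its labels give no doxycycline. Both titles give 8 h of depletion, while the extraction text speaks of harvest at 6 h. Neither degron line has untreated libraries of its own, so the line, the degron version, doxycycline and the ligand cannot be told apart from the loss of the polymerase in any value here. Wild-type HCT116 with DMSO, also 3 libraries, was kept out of every test and is given beside the values only to place them. The 3 wild-type libraries with 5 µg/mL actinomycin D were not used here.

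RNA polymerase I makes the large ribosomal RNA precursor in the nucleolus, and RNA polymerase II makes messenger RNAs and most long non-coding RNAs. RNA polymerase III makes transfer RNAs and the smallest ribosomal RNA, which is part of the large ribosomal subunit. POLR1A and POLR2A are the largest, catalytic subunits of RNA polymerases I and II. A degron removes the protein and leaves its messenger RNA, and RNA that was made before the depletion stays until it decays, so a total RNA library holds old and new transcripts together. The study's title and design text concern the part that RNA polymerase I takes, outside the nucleolus, in gene expression and genome organization.

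The 3 POLR1A-depleted libraries held 18796962 to 21802217 counts and the 3 POLR2A-depleted libraries 11289094 to 15037410. Levels below are CPM, counts scaled by the trimmed mean method (TMM) to a common library total, listed for replicates 1, 2 and 3 in that order. Fold changes are on the log2 scale, POLR1A depleted minus POLR2A depleted, with the standard error (SE) of the fit. A positive value thus means a higher level with POLR1A depleted, and it can come from a gain there or from a loss with POLR2A depleted. The POLR1A-depleted libraries, although deeper, had fewer genes with at least 1 count, 32326, 33149 and 32584 against 38144, 39193 and 37371, and the controls had 30774 to 31743. Mitochondrially encoded mRNAs took 8.68% to 10.4% of the counts with POLR2A depleted, against 5.58% to 5.98% with POLR1A depleted and 6.06% to 8.17% in controls. The groups of the direct contrast did not overlap in either measure, and the exact two-sided permutation p was 0.1 for each, the smallest that 3 against 3 can give.

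The messenger RNAs of the targeted genes were reported first as a check of the labels. POLR1A was at 154, 159 and 152 CPM with POLR1A depleted and at 135, 149 and 140 CPM with POLR2A depleted, and the log2 fold change was 0.13 ± 0.05. That small difference was no longer called with library totals alone (0.05), without POLR1A-depleted replicate 2 (0.14) or without POLR2A-depleted replicate 1 (0.12). POLR2A was at 953, 956 and 989 CPM with POLR1A depleted, at 1151, 1130 and 1170 CPM with POLR2A depleted and at 498 to 592 CPM in controls, and the log2 fold change was -0.25 ± 0.04, which turns to 0.40 when libraries are scaled to mitochondrial mRNAs. Both lines thus held more POLR2A mRNA and less POLR1A mRNA (controls 244 to 263 CPM) than wild-type cells on this scale. A protein degron is not read out by these mRNA levels, so they do not check the depletion itself.

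Of 22108 genes tested with edgeR's quasi-likelihood test, 14913 (67.5%) differed between the depletions at a Benjamini-Hochberg adjusted p under 0.05. The level was higher with POLR1A depleted for 6922 genes (31.3%) and lower for 7991 (36.1%). With libraries scaled to the mitochondrial mRNAs in place of TMM, the median of all genes moved up by 0.65 on the log2 scale and the split became 11779 higher and 4233 lower. The sizes were uneven: 271 genes (1.23%) were called and at least 2 higher on the log2 scale, and 3165 (14.3%) were called and at least 2 lower. Those 3165 genes had at least 4 times the level with POLR2A depleted that they had with POLR1A depleted. At a cut of 1, the numbers were 2149 (9.72%) higher and 5174 (23.4%) lower. Since the calls cover most genes, a list of genes in which 31.3% were higher and 36.1% lower would not stand out. For the 9563 protein-coding genes with 10 CPM or more in controls, which resemble most list members below in level, 55.6% were higher, 21.6% were lower and the median was 0.27.

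The 12 protein-coding genes with the highest log2 fold changes, within the called genes that averaged log2 CPM 3 or above and whose groups did not overlap (a condition that 71.1% of all tested genes met), ran from 3.00 for CEMIP to 7.78 for PRKAA2. PRKAA2, one of the genes for the catalytic part of the AMP-activated kinase AMPK, lies at chr1:56645322-56715335 (GRCh38). It was at 18.7, 16.9 and 16.8 CPM with POLR1A depleted, at 0.0705, 0.125 and 0 CPM with POLR2A depleted and at 10.5 to 11.6 CPM in controls. The POLR2A-depleted group held 3 counts of it in all against 1050, and the ratio of POLR2A-depleted to POLR1A-depleted level was 0.00414 (exact binomial 95% interval 0.000853 to 0.0121, counting error only). Near absence in 1 line that has no untreated libraries cannot be told apart from a difference between lines. ZNF608, a zinc finger gene at chr5:124636913-124748807, was at 25, 29.4 and 30.0 CPM against 1.34, 1.5 and 1.48 CPM, with 7.39 to 8.42 CPM in controls, and its log2 fold change was 4.28 ± 0.15. The controls of ZNF608 lay between the groups, so the POLR1A-depleted level was above wild type and the POLR2A-depleted level below it. GLI2, a transcription factor of Hedgehog signalling, was at 14.8, 16.3 and 16.0 CPM against 0.776, 1.19 and 1.48 CPM, a log2 fold change of 3.79 ± 0.19, with controls at 14.9 to 20.0 CPM. MID1, a microtubule-associated ubiquitin ligase, was at 126, 117 and 117 CPM against 13.6, 14 and 14.3 CPM, a log2 fold change of 3.10 ± 0.06, with controls at 160 to 169 CPM. For both genes the POLR2A-depleted libraries were the ones far from wild type. KLF12, TGFB1I1, ENOX1, PCDHAC2, SH3TC1, ZBED2 and H2BC14 made up the rest of the 12, with log2 fold changes from 3.06 to 3.86.

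Just below them, SLC38A2, the amino acid transporter SNAT2, was at 756, 698 and 713 CPM with POLR1A depleted, at 91.4, 89.5 and 93.5 CPM with POLR2A depleted and at 816 to 865 CPM in controls. Its log2 fold change was 2.98 ± 0.05, and it was named after its values were seen. KDM7A, a histone demethylase gene likewise chosen after its values were seen, showed the other form of a high value: 71.9, 74.7 and 72.2 CPM against 9.52, 9.42 and 9.69 CPM, with controls at 19.4 to 23.3 CPM.

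The 12 lowest protein-coding genes ran from -3.75 for CCDC168 to -6.84 for LGR5, and all 12 were at 4 CPM or less in each control library. LGR5, a receptor of R-spondins and a marker of intestinal stem cells, lies at chr12:71439770-71586310 and was at 0.327, 0.141 and 0.0964 CPM with POLR1A depleted, at 19.8, 22.9 and 22.3 CPM with POLR2A depleted, and without a count in controls. MGAM2, a maltase-glucoamylase gene at chr7:142111749-142222324, was at 0.544, 0.235 and 0.241 CPM against 22.6, 24.8 and 27.1 CPM. TG, which encodes thyroglobulin of the thyroid, was at 0.490, 0.751 and 0.337 CPM against 31.4, 32.1 and 31.5 CPM, a log2 fold change of -5.88 ± 0.17. MGAM lies next to MGAM2 on the same strand, so they are not separate examples. TRANK1, FAM131B, LRRN4, CNTN2 (a neuronal adhesion molecule), CFAP43 (a cilium protein), MGAM, EFCAB12 and SLC10A1 (the bile acid importer of liver) completed the set with CCDC168. In every one the 3 POLR2A-depleted libraries, at 14.8 to 42.7 CPM, lay above all POLR1A-depleted and control libraries. Groups without overlap were a condition of the choice, so the place above the POLR1A-depleted libraries was set by it. Genes this weak elsewhere also met the level cut through the POLR2A-depleted libraries. NEB, the giant muscle protein nebulin, which was picked after its values were seen, had the same form at 11.5, 11.1 and 9.88 CPM against 102, 110 and 112 CPM.

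**Figure D1:**
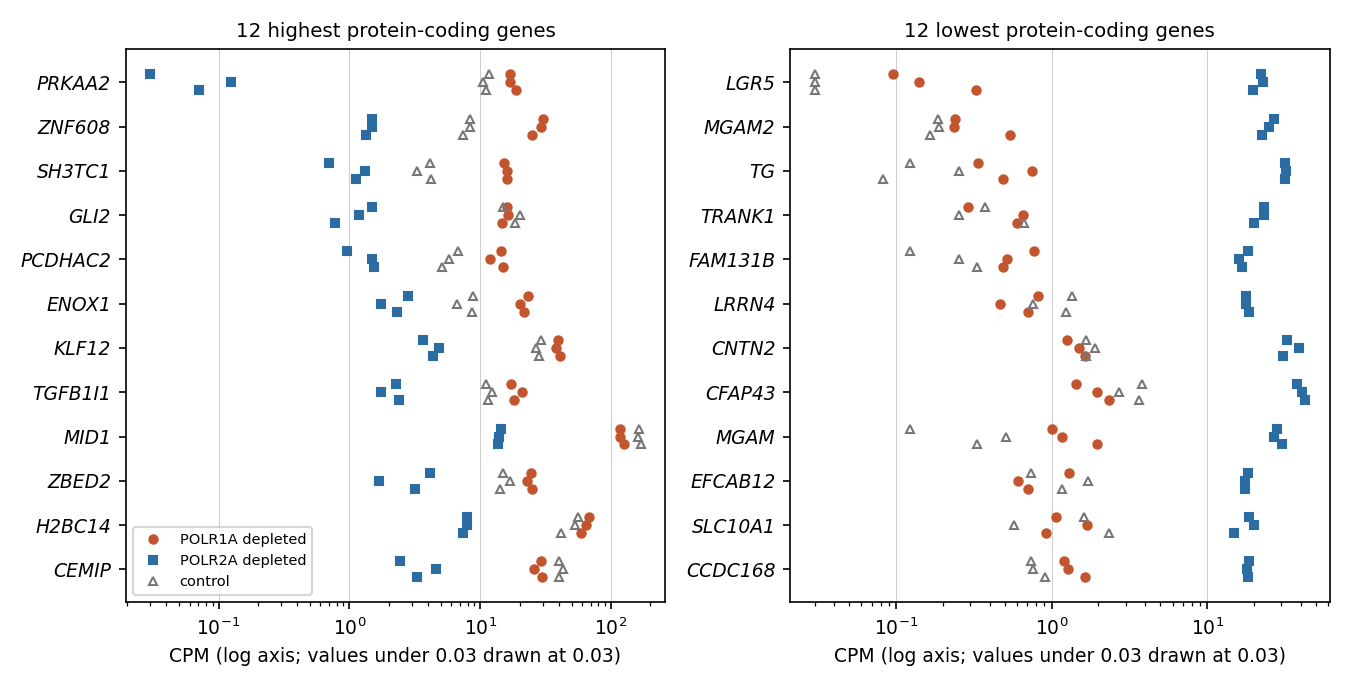
Level in each library, in CPM on a log axis, of the 12 highest (left) and 12 lowest (right) protein-coding genes; filled circles are POLR1A-depleted, filled squares POLR2A-depleted and open triangles control libraries, and values under 0.03 are drawn at 0.03. On the right the POLR2A-depleted squares stand apart from both other groups, and on the left the squares are again the group farthest from the rest for most genes. That the depleted groups do not overlap was a condition of the choice.

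The wild-type level was compared with both groups for the genes with large differences. Of the 3165 genes called and at least 2 lower, the control mean was nearer to the POLR1A-depleted mean in 3036 (95.9%). Of the 3165, however, 2725 did not pass the count filter in the control libraries alone; they were tested through their level with POLR2A depleted, so that share is largely set by the filter. Of the 440 that passed in controls, the control mean was nearer to the POLR1A-depleted mean in 350 and nearer to the POLR2A-depleted mean in 90. Of the 271 genes called and at least 2 higher it was nearer to the POLR1A-depleted mean in 193 and nearer to the POLR2A-depleted mean in 78. For the 209 of these that passed in controls, the control mean was nearer to the POLR1A-depleted mean in 172 and to the POLR2A-depleted mean in 37. Among all 6922 genes called higher, the controls lay between the groups in 3468, above both in 2354 and below both in 1100. Among all 7991 called lower these numbers were 3920, 925 and 3146. The controls are wild-type cells and not the degron lines, and no test against them was made.

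Some genes took the opposite place, with the POLR1A-depleted libraries far from both other groups. PPP1R12C was at 3.70, 3.24 and 3.52 CPM with POLR1A depleted, at 49.3, 40.5 and 45.1 CPM with POLR2A depleted and at 40.7 to 48.6 CPM in controls, a log2 fold change of -3.69 ± 0.11. An intron of this myosin phosphatase gene holds AAVS1, a site much used for inserting transgenes, and where the OsTIR1 gene lies in these lines was not examined. MAL2, a membrane protein of epithelial transcytosis, was at 18.9, 18.4 and 18.9 CPM against 177, 170 and 166 CPM, with controls at 225 to 234 CPM. GRHL2, a transcription factor that maintains epithelial identity, was at 8.22, 7.09 and 8.20 CPM against 25.3, 28.0 and 26.8 CPM, and CAV1, the coat protein of caveolae, was at 161, 152 and 143 CPM against 529, 499 and 502 CPM. The fatty acid enzyme gene ACSL5 (log2 fold change -2.07 ± 0.05), the glutamate transporter gene SLC1A3 (-2.30 ± 0.11) and the epithelial adaptor gene AP1M2 (-1.92 ± 0.08) had the same form. In all 7 of these genes the POLR1A-depleted libraries were below every control library. These genes were chosen after their values were seen.

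Among genes that wild-type cells barely express, the tested ones were mostly lower with POLR1A depleted, and they made up 3243 of the 7991 genes called lower. When the tested genes were ordered by their control level into 5 equal groups, the weakest group, at 0.674 CPM or less, had a median log2 fold change of -2.49, with 108 of 4422 genes called higher and 3243 called lower. In the group above it, up to 2.81 CPM, the median was -0.43, and 435 genes were called higher and 1584 lower. The middle group had a median of 0.07, and in the strongest, from 53 CPM, 2572 of 4422 genes were called higher and 1006 lower with a median of 0.25. Weak genes had to pass the count filter through the libraries in which they were high, so the count in the weakest group is a description of the genes that passed. When the 16789 genes that passed the filter in the control libraries alone were fitted anew, with their own TMM scaling, 32.9% were called higher and 33.7% lower. In the main fit 16568 of them were tested, and 6750 were called higher and 4345 lower (median 0.12). Without that filter, the 46647 genes under 1 CPM in controls took 0.53%, 0.53% and 0.48% of all counts with POLR1A depleted, 1.47%, 1.76% and 1.57% with POLR2A depleted, and 0.36% to 0.50% in controls.

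**Figure D2:**
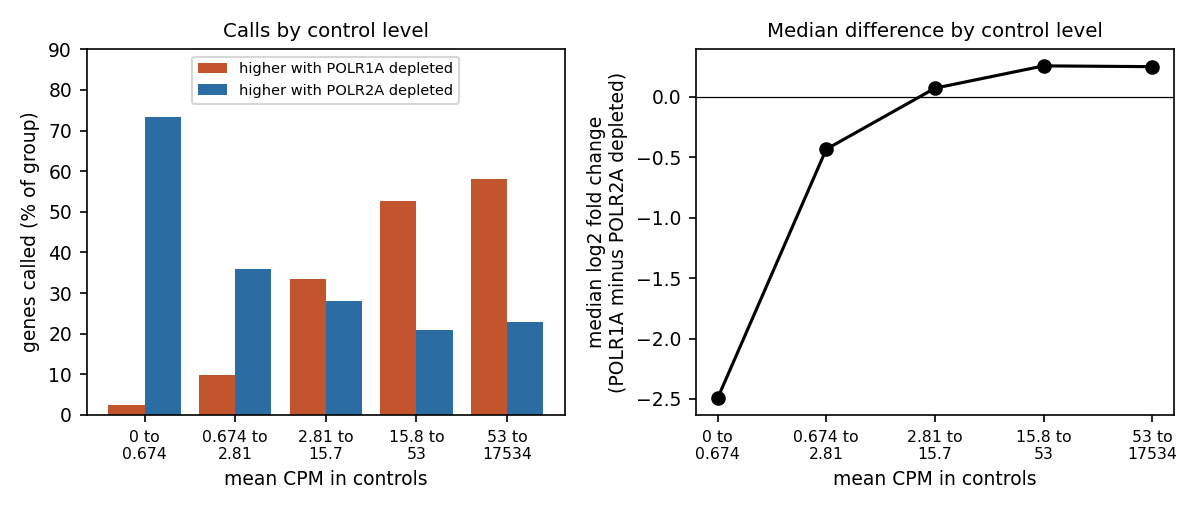
Left, percent of genes called higher with POLR1A depleted or higher with POLR2A depleted in 5 equal groups of tested genes by mean control CPM; right, the median log2 fold change of each group. Calls with more RNA under POLR2A depletion fall from 73.3% to 22.7% from the weakest to the strongest group, and the median moves from -2.49 to 0.25.

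The position of these weak genes relative to well expressed neighbours, those with 10 CPM or more in controls, was looked at after the values above had been seen. Weak genes that begin up to 10 kb downstream of the end of such a neighbour on the same strand, 1279 genes, summed to 223 to 268 CPM in controls, to 314, 320 and 301 CPM in the POLR1A-depleted and to 1235, 1389 and 1292 CPM in the POLR2A-depleted libraries. The ratio of POLR2A-depleted to POLR1A-depleted means was 4.19 there, 4.88 for the 2961 genes 10 to 50 kb downstream and 4.23 for the 6314 genes 50 to 200 kb downstream. For the 23396 weak genes farther away or with no such neighbour the ratio was 3.10. Weak genes that overlap a well expressed gene had lower ratios, 1.74 on the same strand (3527 genes) and 1.79 on the other (4850 genes). Thus all 6 position classes held more RNA with POLR2A depleted in every library, and the ratio was smallest where the weak gene shares its locus with an active one. Among the 12 lowest protein-coding genes, EFCAB12 begins 2.29 kb downstream of MBD4, CCDC168 6.92 kb downstream of TEX30, TG 18.2 kb downstream of PHF20L1, LRRN4 20.8 kb downstream of FERMT1, FAM131B 27.5 kb downstream of EPHA1 and TRANK1 39.9 kb downstream of EPM2AIP1. Others lie farther from such a neighbour: MGAM begins 120 kb downstream of SSBP1, and CNTN2 485 kb downstream of MDM4. Whether the reads in these genes come from transcripts that start at the genes or upstream of them was not tested, since counts per gene do not hold it.

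**Figure D3:**
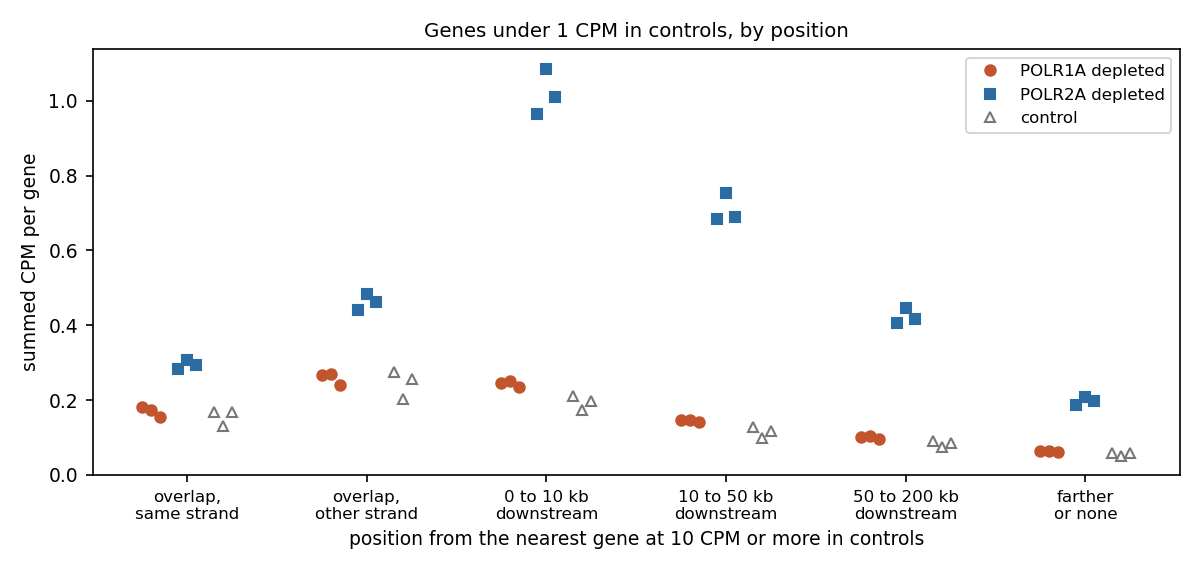
Summed CPM divided by the number of genes, for genes under 1 CPM in controls, by position from the nearest gene with 10 CPM or more in controls on the same strand; each point is 1 library. The POLR2A-depleted squares are above the other groups in all 6 classes; their level per gene is highest up to 10 kb downstream (1235 to 1389 CPM over 1279 genes), while the ratio to the POLR1A-depleted libraries is highest at 10 to 50 kb (4.88).

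Long non-coding genes took a somewhat larger share of the counts with POLR2A depleted. Over all 14776 of them, with no filter, the share was 2.58%, 2.67% and 2.42% with POLR1A depleted and 3.17%, 3.21% and 3.26% with POLR2A depleted, with controls at 2.53% to 3.04%. Of 3639 long non-coding genes tested, 366 were higher with POLR1A depleted and 1841 lower, with a median of -0.80 (-0.15 under mitochondrial scaling). Many of the genes tested are weak in controls and passed the count filter through the libraries in which they were high. Over the 16568 tested genes of any class that passed it in controls alone, 6750 were higher and 4345 lower (median 0.12). Of the 1918 long non-coding genes that passed it there, 311 were higher and 741 lower (median -0.30). Their median was not taken under mitochondrial scaling, which moved the median of all genes up by 0.65, so their direction rests on the scale used. For intergenic transcripts named LINC, 32 of 415 tested were higher and 279 lower (median -1.68, out of 2263 in the table), and of the 169 that passed in controls alone 30 were higher and 85 lower (median -0.61). LINC01338 was at 1.47, 1.31 and 0.82 CPM against 25.7, 25.8 and 21.4 CPM, and LINC01588, 24.5 kb downstream of SOS2, was at 3.16, 2.68 and 2.46 CPM against 40.0, 46.8 and 40.4 CPM. Both were at 5 CPM or less in controls. LINC02052 had no count in the POLR1A-depleted libraries and 3.17, 3.24 and 3.41 CPM with POLR2A depleted, which is at least 65.7-fold lower with POLR1A depleted against a floor of 3 counts over the group. MIR663AHG, a host gene of miR-663a, went the other way round the controls: it was at 53, 112 and 84.3 CPM with POLR1A depleted, at 1647, 638 and 1006 CPM with POLR2A depleted and at 746 to 1203 CPM in controls (log2 fold change -3.72 ± 0.54). Its spread within groups was wide, and it was chosen by a rule that asked for groups without overlap. A few non-coding genes were higher with POLR1A depleted, among them SNHG7 at 63.3, 61.9 and 59.2 CPM against 16.5, 15.2 and 20.0 CPM, and MIR222HG, the host gene of miR-221 and miR-222, at 61.5, 54.5 and 56.2 CPM against 19.2, 15.9 and 17.3 CPM.

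Divergent transcripts start near the promoter of a protein-coding gene and run away from it. On the TMM scale they were mostly lower with POLR1A depleted, while more of their partners were higher than lower. Of 290 tested transcripts whose name ends in DT, 14 were higher and 191 lower with POLR1A depleted (median -1.32, out of 589 in the table), and 288 had a tested protein-coding partner. Under mitochondrial scaling 32 of the 290 were higher and 125 lower (median -0.69). Many of these transcripts are weak in controls and were tested because of their level with POLR2A depleted. Of the 150 that also passed the count filter in controls alone, 12 were higher and 85 lower (median -0.78). That median was not taken under mitochondrial scaling, which moved the median of all genes up by 0.65. In 105 of the 288 pairs the divergent transcript was called lower and the partner called higher, in 47 both were lower, in 8 both were higher and in 1 the transcript was higher and the partner lower. Over all pairs 190 transcripts were called lower and 163 partners higher, and the product of these shares alone gives 107.5 pairs of the first kind, so the 105 do not exceed what those shares give. The transcript's log2 fold change was below its partner's in 255 pairs. That count includes pairs whose transcript was tested through its level with POLR2A depleted. It was not taken for transcripts that passed in controls alone. The partners' median was 0.29, near the 0.27 of protein-coding genes with 10 CPM or more in controls, of which 55.6% were higher. Of 688 pairs with antisense transcripts named AS, 139 had the transcript lower and the partner higher, where the product of the shares gives 171, and another 139 had both lower. Transcripts and partners can overlap, and the strand setting of the counting is not given in the sources used here, so part of an antisense count can come from the partner.

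NIPBL and NIPBL-DT, which share a promoter, are 1 pair with the transcript lower and the partner higher. NIPBL encodes the factor that loads cohesin onto DNA. It was at 230, 222 and 233 CPM with POLR1A depleted, at 77.4, 67.4 and 84.1 CPM with POLR2A depleted and at 148 to 173 CPM in controls, a log2 fold change of 1.59 ± 0.07. NIPBL-DT was at 7.89, 7.74 and 7.04 CPM, at 32.4, 29.3 and 32.8 CPM and at 6.21 to 7.06 CPM in the same groups, a log2 fold change of -2.06 ± 0.10. In the POLR2A-depleted libraries the messenger RNA was thus below and the divergent transcript above every other library. The sequence shown is the 250 bases before the RefSeq start of NIPBL (GRCh38.p14, chr5:36876519-36876768, plus strand), with the 74 bases between the start of NIPBL-DT on the minus strand and the start of NIPBL in capitals, since both transcripts begin within them or at their edges.
NIPBL: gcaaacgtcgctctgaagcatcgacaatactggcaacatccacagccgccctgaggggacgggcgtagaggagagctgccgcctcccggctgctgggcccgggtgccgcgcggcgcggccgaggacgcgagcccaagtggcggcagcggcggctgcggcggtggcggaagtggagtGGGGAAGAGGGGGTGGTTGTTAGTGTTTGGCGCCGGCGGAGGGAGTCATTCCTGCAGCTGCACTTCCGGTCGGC
The same form was seen for TSPAN5-DT, a log2 fold change of -1.16 ± 0.17, beside TSPAN5 at 1.34 ± 0.05, and for NUP50-DT at -2.41 ± 0.16 beside the nuclear pore gene NUP50 at 0.40 ± 0.05. TSPAN5-DT was no longer called under mitochondrial scaling (-0.51). These 3 pairs were chosen after their values were seen.

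**Figure D4:**
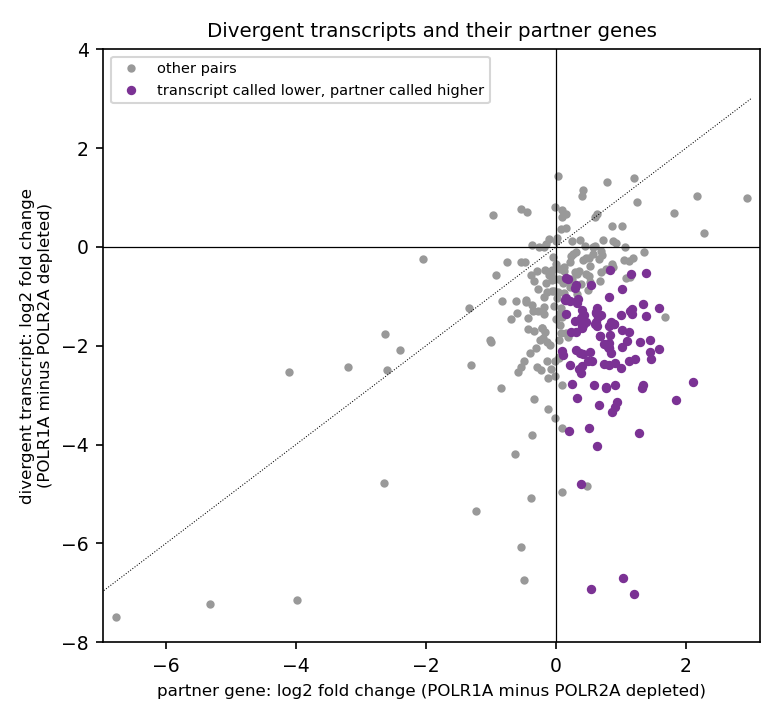
Log2 fold change (POLR1A minus POLR2A depleted) of 288 divergent transcripts (vertical axis) against that of their protein-coding partners (horizontal axis); purple points are the 105 pairs with the transcript called lower and the partner called higher, grey points are all other pairs, and the dotted line marks equal values. Of all points, 255 lie below the dotted line, and the points include transcripts tested through their level with POLR2A depleted.

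The transcription machinery itself was uneven. Of the 15 Pol I subunits and initiation factors, 7 were higher with POLR1A depleted and 4 lower (median 0.10). The higher ones were led by TAF1B and TAF1D of the promoter selectivity factor, at 1.35 ± 0.11 and 1.04 ± 0.04. POLR1B, the second largest Pol I subunit, was at 114, 106 and 97.9 CPM against 65.1, 71.7 and 74.0 CPM, and both groups were under the controls at 187 to 216 CPM. Of 13 Pol II subunits 3 were higher and 7 lower (median -0.20, but 0.46 with 11 higher and none lower under mitochondrial scaling). Pol III factors had the highest median of the polymerase lists, 0.49, with 14 of 21 higher and 3 lower. POLR3B, the second largest Pol III subunit, was at 37.5, 35.6 and 34.1 CPM with POLR1A depleted, at 9.73, 9.48 and 10.5 CPM with POLR2A depleted and at 36.9 to 40.9 CPM in controls, and POLR3E was at 1.55 ± 0.08. In both, the POLR2A-depleted libraries were the low ones.

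Regulators of Pol II pausing and elongation were higher in 21 of 32 (65.6%) and lower in 4 (median 0.33). For protein-coding genes with 10 CPM or more in controls, 55.6% were higher and the median was 0.27. CDK12, a kinase of the Pol II tail that sustains elongation through long genes, was at 225, 204 and 205 CPM against 84.4, 77.7 and 79.0 CPM, with controls at 200 to 205 CPM. AFF1, a scaffold of the super elongation complex, was at 174, 163 and 172 CPM against 67.7, 71.0 and 70.9 CPM, and here the controls, at 69.9 to 71.2 CPM, were at the POLR2A-depleted level. Of 30 Integrator and 3′ end processing genes 19 (63.3%) were higher and 8 lower, with the Integrator subunit INTS7 highest at 1.52 ± 0.09. For the nuclear exosome and its adaptors, which degrade divergent and other short-lived nuclear RNAs, 6 of 18 were higher and 6 lower. RBM7 (1.36 ± 0.08) and ZCCHC8 (0.84 ± 0.09), both of the NEXT adaptor complex, were higher with POLR1A depleted.

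**Figure D5:**
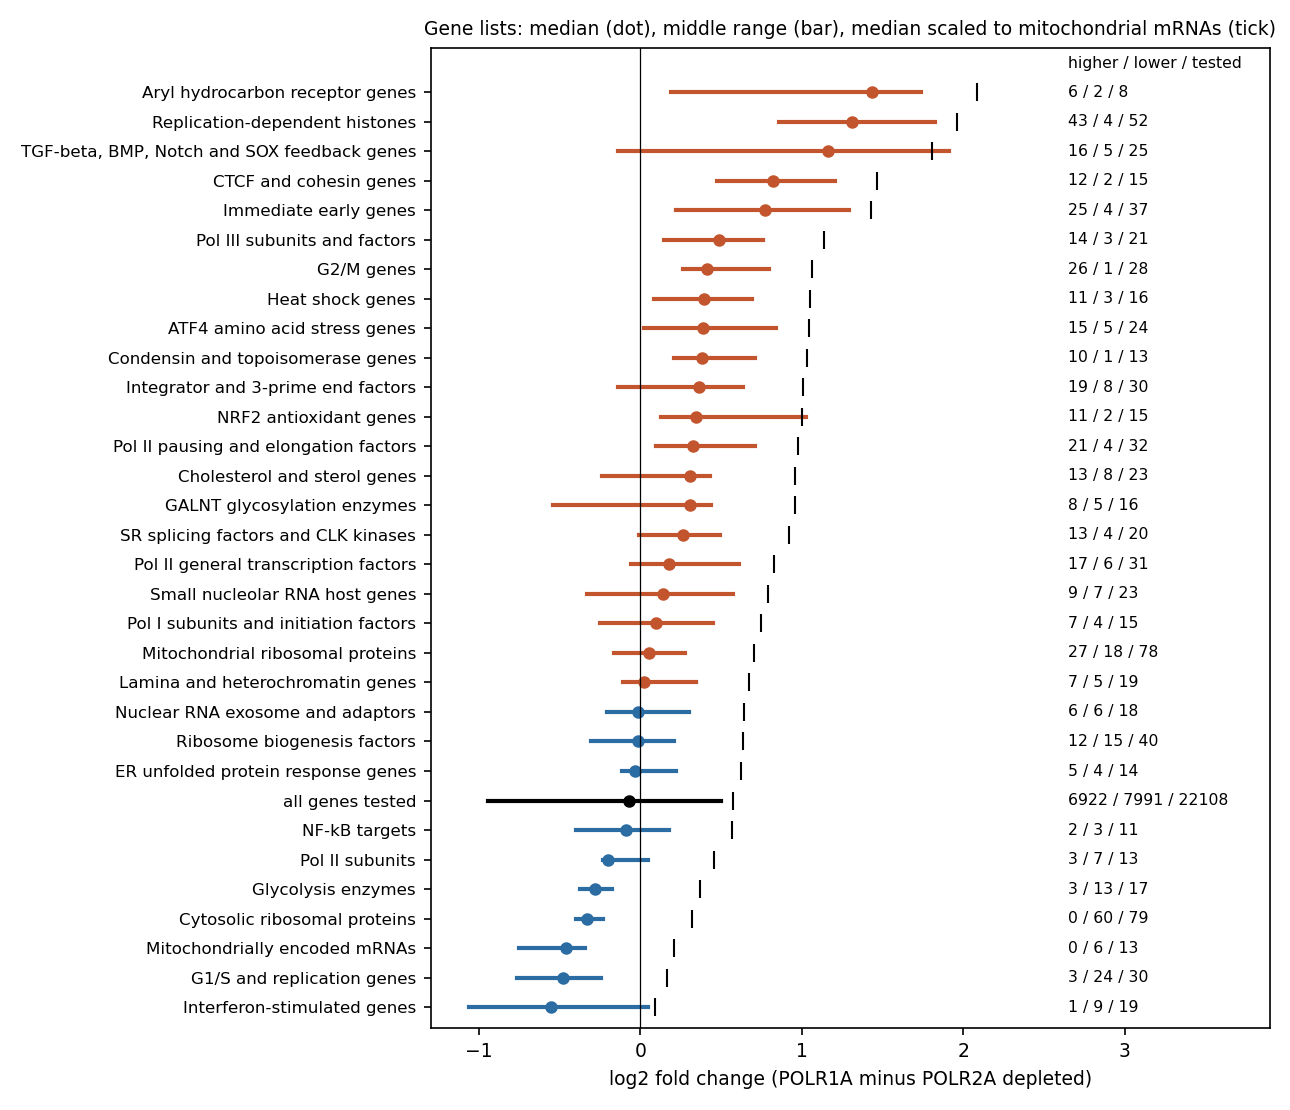
Median (dot) and quartile range (bar) of the log2 fold change in each gene list shown, with the median under scaling to mitochondrial mRNAs as a black tick; the numbers at the right give members called higher, called lower and tested. Replication-dependent histones (median 1.31) and CTCF and cohesin genes (0.82) lie well to the right of all genes tested (-0.07), and ribosomal proteins, glycolysis enzymes, G1/S genes and mitochondrial mRNAs lie to the left of all genes both by their dots and by their ticks, where all genes tested are at 0.58.

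Ribosome production differed by layer. None of 79 cytosolic ribosomal protein mRNAs was higher with POLR1A depleted, 60 were lower and the median was -0.33. Under mitochondrial scaling, which raises all genes, 64 were higher, none was lower and the median was 0.32. The median of these mRNAs was below that of all genes tested on both scales, -0.07 with TMM and 0.58 with mitochondrial scaling. RPL3 was at 633, 693 and 722 CPM with POLR1A depleted and at 1170, 1070 and 1108 CPM with POLR2A depleted, with controls at 993 to 1159 CPM. Among 40 ribosome biogenesis factors 12 were higher and 15 lower (median -0.02), and the controls lay above both groups in 26 of the 27 called. BOP1, a factor of the large subunit, was at 75.5, 76.0 and 79.3 CPM against 162, 149 and 169 CPM with controls at 177 to 199 CPM, and NOLC1, a chaperone of small nucleolar particles, was lower too (-0.86 ± 0.06). WDR43, a factor of the small subunit, was the reverse at 182, 174 and 189 CPM against 76.5, 68.7 and 79.0 CPM, with controls at 253 to 280 CPM. Small nucleolar RNA host genes were also mixed, with 9 of 23 higher and 7 lower: SNHG1 was higher (1.40 ± 0.05) and SNHG10 lower (-0.99 ± 0.13). RPL3, NOLC1 and SNHG10 were no longer called under mitochondrial scaling (-0.06, -0.20 and -0.34). Of 13 mitochondrial mRNAs, 6 were lower and none was higher, led by MT-CO1 at 8212, 7722 and 8546 CPM against 19622, 18500 and 18327 CPM. Scaling to the sum of these mRNAs fixes their balance, and the -0.55 of MT-CO1 on that scale gives only its place among the 13.

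CDKN1A, MDM2, GDF15, FAS and BTG2, single genes of growth arrest and stress, were higher with POLR1A depleted. CDKN1A, the cell cycle inhibitor p21, was at 874, 872 and 882 CPM with POLR1A depleted, at 227, 224 and 230 CPM with POLR2A depleted and at 79.5 to 91.5 CPM in controls, a log2 fold change of 1.95 ± 0.04. MDM2, a ubiquitin ligase, was at 924, 833 and 890 CPM against 226, 228 and 236 CPM with controls at 215 to 232 CPM, so that MDM2 was above wild type by far with POLR1A depleted and near it with POLR2A depleted. GDF15, a stress cytokine, was at 188, 206 and 210 CPM against 32.2, 29.6 and 29.4 CPM with controls at 31.1 to 34.6 CPM. For CDKN1A the controls lay below both depletions, and the same held for FAS, a death receptor, and BTG2, an antiproliferative gene. FAS was at 104, 107 and 102 CPM, at 84.3, 95.3 and 92.9 CPM and at 14.7 to 17.5 CPM in controls, and BTG2 at 172, 162 and 173 CPM, at 137, 136 and 134 CPM and at 17.6 to 21.5 CPM. The difference in FAS was no longer called with library totals alone (0.12).

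Some single genes of apoptosis follow, with no count over such genes. BBC3, which encodes PUMA, was higher with POLR1A depleted (17.4, 20.8 and 20.9 CPM against 7.26, 7.05 and 9.17 CPM), as was BAX (0.95 ± 0.06). PMAIP1, which encodes NOXA, was lower, at 69.1, 66.9 and 67.6 CPM against 190, 178 and 194 CPM with controls at 46.1 to 50.2 CPM. SPATA18, a gene of mitochondrial quality control, was lower too, at 0.163, 0.141 and 0.193 CPM against 1.55, 1.93 and 0.961 CPM. The decoy receptor gene TNFRSF10C, named after its values were seen, was at 20.8, 23.5 and 24.1 CPM against 4.94, 3.68 and 3.14 CPM.

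Genes of the cell cycle divided by phase. Of 30 G1/S and replication genes, 3 were higher with POLR1A depleted and 24 lower (median -0.48), and under mitochondrial scaling 12 were higher, 3 lower and the median was 0.17. The 3 genes still called lower under that scaling were E2F1, E2F2 and CCNE1, the E2F factors and cyclin E. E2F1 was at 14.2, 17.2 and 17.1 CPM with POLR1A depleted and at 38.7, 35.1 and 43.2 CPM with POLR2A depleted, with controls at 29 to 34.5 CPM. E2F2 was at 12.1, 11.4 and 11.4 CPM against 33.1, 33.9 and 32.1 CPM with controls at 43.8 to 46.0 CPM, and CCNE1 at 18.8, 19.7 and 21.7 CPM against 45.9, 48.7 and 49.2 CPM. In all 3 genes the POLR1A-depleted libraries were below both other groups. Of 28 G2/M genes, 26 were higher with POLR1A depleted and 1 lower, with a median of 0.41. TTK, a kinase of the spindle checkpoint, was at 99.7, 87.4 and 87.4 CPM against 33.6, 34.3 and 36.6 CPM, with controls at 79.5 to 101 CPM, and TOP2A, the topoisomerase of mitotic chromosomes, at 359, 348 and 344 CPM against 162, 149 and 155 CPM. Fewer cells in a phase and less RNA per cell cannot be told apart in such bulk libraries.

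Replication-dependent histone genes had among the highest list medians. These genes supply new chromatin during DNA replication, and their messages end in a stem-loop without a poly(A) tail and decay rapidly once replication stops. Of 68 members 52 were tested, 43 were higher with POLR1A depleted and 4 lower, and the median was 1.31. Their summed share of all counts, over all 68, was 0.55%, 0.61% and 0.62% with POLR1A depleted, 0.25%, 0.26% and 0.24% with POLR2A depleted and 0.66% to 0.74% in controls. The POLR2A-depleted libraries were thus the low group. H3C12 was at 174, 182 and 183 CPM against 26.7, 28.3 and 24.7 CPM, with controls at 164 to 202 CPM. H2BC14 was at 59.2, 64.4 and 68.1 CPM against 7.33, 7.86 and 7.86 CPM with controls at 41.1 to 55.7 CPM (log2 fold change 3.06 ± 0.09), and its divergent neighbour H2AC14 was at 186, 202 and 193 CPM against 56.7, 49.7 and 49.4 CPM (1.90 ± 0.06). The 4 lower members, H1-3, H2BC6, H4C9 and H2AC25, did not follow the others: H2BC6 was at 1.74, 2.16 and 2.12 CPM against 14.4, 16.0 and 16.3 CPM, with controls under 2 CPM. Histone genes are near copies of each other, and the authors' estimated counts divide shared reads between them, so single members are less certain than their sum.

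H2BC14 and H2AC14 form a pair that starts from 1 shared region in opposite directions, as NIPBL and NIPBL-DT do, but both partners were lower with POLR2A depleted. The sequence shown is the 250 bases before the RefSeq start of H2BC14 (GRCh38.p14, chr6:27814772-27815021, plus strand), and 244 bases lie between the starts of the pair. Capitals mark the octamer ATTTGCAT, the binding sequence of OCT1 known from H2B promoters, and the 5 occurrences of CCAAT on either strand, written ATTGG where it lies on the other strand.
H2BC14: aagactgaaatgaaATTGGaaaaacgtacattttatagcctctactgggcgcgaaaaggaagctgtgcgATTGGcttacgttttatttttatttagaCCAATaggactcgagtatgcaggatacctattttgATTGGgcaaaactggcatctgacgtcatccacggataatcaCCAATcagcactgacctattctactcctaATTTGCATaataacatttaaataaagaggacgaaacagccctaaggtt
The octamer lay 48 to 41 bases before the start. Searched on both strands of such windows, it was present for 14 of 18 H2B genes (77.8%), for 26 of 63 histone genes of the list (41.3%) and for 554 of all 27305 genes with a window (2.03%). CCAAT was present for 53 of the 63 histone genes (84.1%) and for 37.0% of all genes. These are matches of letters, not measured binding.

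Short-lived messages of growth factor and stress signalling were mostly higher with POLR1A depleted. Of 37 immediate early genes, 25 (67.6%) were higher and 4 lower (median 0.77). For protein-coding genes with 10 CPM or more in controls, 55.6% were higher and the median was 0.27. EGR1, a transcription factor induced within minutes of a stimulus, was at 566, 649 and 659 CPM against 127, 101 and 127 CPM, with controls at 154 to 182 CPM. IER3 was at 574, 611 and 618 CPM against 115, 104 and 108 CPM with controls at 348 to 379 CPM. MYC was at 142, 139 and 158 CPM against 95.1, 79.2 and 83.4 CPM, and both groups were far below the controls at 704 to 827 CPM. Of the 4 lower members, JUN was at 17.9, 17.8 and 19.7 CPM against 43.8, 36.1 and 39.3 CPM, and ATF3 at 24.4, 27.5 and 30.3 CPM against 50.8, 46.7 and 58.4 CPM with controls at 11 to 11.4 CPM, though ATF3 was no longer called under mitochondrial scaling (-0.27).

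Feedback genes of the TGF-beta, BMP, Notch, Hedgehog and Wnt pathways and of the SOX family were higher in 16 of 25 tested (64%, 28 members) and lower in 5. Their median was 1.16, against 0.27 and 55.6% higher for protein-coding genes with 10 CPM or more in controls. Beside GLI2, the higher members included PTCH1, the Hedgehog receptor, at 13.3, 13.3 and 12.3 CPM against 2.75, 1.75 and 1.48 CPM, and AXIN2, a Wnt feedback gene, at 30.4, 30.9 and 35.4 CPM against 7.47, 7.67 and 6.29 CPM. SOX4 was at 52.1, 49.2 and 51.2 CPM against 13.4, 11.3 and 10.5 CPM, and its controls, at 261 to 288 CPM, were above both. In 14 of the 21 called members the controls lay above both depletions. LGR5, an amplifier of Wnt signals, was the lowest member of this list.

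Stress programmes differed in part. ATF4, the transcription factor of the amino acid response, was at 154, 161 and 169 CPM against 62.5, 63.0 and 55.5 CPM with controls at 235 to 266 CPM. Of 24 genes on its list 15 (62.5%) were higher and 5 lower (median 0.39). Protein-coding genes with 10 CPM or more in controls had 55.6% higher and a median of 0.27. TRIB3, an ATF4 target, was at 32.4, 32.9 and 31.4 CPM against 8.74, 7.86 and 7.60 CPM. For the heat shock genes 11 of 16 were higher and 3 lower, led by DNAJB1 at 1.26 ± 0.04, and for the NRF2 antioxidant genes 11 of 15 were higher and 2 lower, led by GCLC at 1.44 ± 0.06. The cystine transporter gene SLC7A11, on both the ATF4 and the NRF2 lists, was at 195, 202 and 184 CPM against 74.3, 73.3 and 77.5 CPM with controls at 58.7 to 62.0 CPM. ER unfolded protein response genes were balanced, with 5 of 14 higher and 4 lower. Of 19 interferon-stimulated genes tested (21 members) 1 was higher and 9 lower, with a median of -0.55. Under mitochondrial scaling 6 were higher and 6 lower, and the median turned to 0.09. The low end was made of genes almost silent elsewhere: OAS2 was at 0.218, 0.0469 and 0.0964 CPM against 8.25, 6.99 and 7.42 CPM, and IFI44L, without a count in the POLR1A-depleted or control libraries, was at least 31.4-fold lower with POLR1A depleted against the floor of 3 counts. OAS2 and IFI44L passed the count filter through their level with POLR2A depleted, so their direction was largely set by it. Members that passed it in controls alone were not counted.

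The aryl hydrocarbon receptor, a ligand-activated transcription factor that binds indole compounds among others, drives detoxifying enzymes and its own repressor. Of its 8 tested genes (9 on the list), 6 were higher with POLR1A depleted and 2 lower, with a median of 1.43. CYP1A1, its most used reporter gene, was at 8.22, 6.95 and 7.76 CPM with POLR1A depleted, at 2.61, 2.18 and 2.45 CPM with POLR2A depleted and at 0.664 to 0.991 CPM in controls. CYP1B1 was at 25.2, 25.8 and 21.6 CPM against 5.57, 4.87 and 4.02 CPM with controls at 3.10 to 4.69 CPM. AHRR, the repressor, was at 40.6, 46.9 and 46.6 CPM against 10.5, 11 and 13.2 CPM, and TIPARP, a feedback enzyme, at 237, 212 and 221 CPM against 90.9, 80.1 and 83.7 CPM. In these 4 genes the POLR1A-depleted libraries were above every other library, controls included. The 2 groups received different auxins at different doses, 500 µM IAA against 1 µM 5-Ph-IAA, and that difference cannot be told apart from the depletion. The lower members were ALDH3A1 (-1.56 ± 0.36) and NQO1 (-0.54 ± 0.04, which turned to 0.11 under mitochondrial scaling).

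Metabolic lists differed from each other. Of 17 glycolysis enzymes 3 were higher and 13 lower (median -0.28), but under mitochondrial scaling 13 were higher, none lower and the median was 0.37. HK1, a hexokinase, was higher on either scale, at 106, 102 and 105 CPM against 58.0, 58.8 and 61.1 CPM. For 23 cholesterol and sterol genes 13 (56.5%) were higher and 8 lower (median 0.31). That is near the 55.6% higher and the median of 0.27 of protein-coding genes with 10 CPM or more in controls. SQLE, an oxygen-dependent enzyme of sterol synthesis, was at 38.5, 36.6 and 35.5 CPM against 20.2, 17.6 and 17.7 CPM, with the controls far above both at 99.4 to 111 CPM.

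Among genes of chromosome architecture, most of the CTCF and cohesin list were lower with POLR2A depleted. CTCF and cohesin together shape loops and domains of the genome, and of the 15 genes on this list 12 were higher with POLR1A depleted and 2 lower, with a median of 0.82. CTCF was at 90.3, 84.7 and 89.5 CPM with POLR1A depleted, at 29.1, 22.6 and 27.1 CPM with POLR2A depleted and at 100 to 113 CPM in controls. MAU2, the partner of NIPBL in loading cohesin, was at 53.5, 58.9 and 56.8 CPM against 14.4, 19.5 and 14.8 CPM with controls at 34.9 to 43.5 CPM. WAPL, which releases cohesin, was at 149, 147 and 152 CPM against 60.7, 56.5 and 60.5 CPM with controls at 144 to 168 CPM. The core subunits differed less, with SMC3 at 0.85 and RAD21 at 0.35. The 2 lower members were the S phase cohesin genes ESCO2 and CDCA5, which turned higher (0.22 and 0.10) under mitochondrial scaling. Condensin and topoisomerase genes were higher in 10 of 13 and lower in 1, including the condensin subunit NCAPH at 1.15 ± 0.06. Their median was 0.38, against 0.27 for protein-coding genes with 10 CPM or more in controls. Lamina and heterochromatin genes were mixed, with 7 of 19 higher and 5 lower, and the histone methyltransferase gene SETDB1 stood at 62.8, 60.0 and 56.1 CPM against 21.1, 21.2 and 21.8 CPM. Among splicing regulators, 13 of 20 were higher and 4 lower, and their median of 0.27 was that of protein-coding genes with 10 CPM or more in controls. The kinase gene CLK4 was at 21.2, 20.5 and 21.5 CPM against 5.71, 5.49 and 5.94 CPM.

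Gene length went with the difference. For protein-coding genes with 10 CPM or more in controls, the median log2 fold change rose over 5 equal groups by genomic span from 0.04 in the shortest (up to 11768 bases) to 0.16, 0.22, 0.37 and 0.55 in the longest (from 96363 bases). In the shortest group 39.5% were called higher and 31.4% lower, and in the longest 73.3% and 10.5%. The same genes ordered by exon number gave medians from 0.16 to 0.43. Span, exon number and level go together across genes, and these were not separated here.

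Markers of tissue were compared because the groups are different lines. HCT116 is of colonic epithelium, and its markers were present in all libraries, with the 18 intestinal epithelial markers summing to 4218 to 4706 CPM in controls, to 2349 to 2495 CPM when POLR1A was depleted and to 2840 to 3051 CPM when POLR2A was, and with CDX1 without a count. Of 15 tested, 5 were higher with POLR1A depleted and 7 lower. The higher ones were CLDN3 (2.74), CLDN4 (1.10), CDX2 (0.41), ESRP2 (0.36) and OCLN (0.27), and the keratin genes KRT18 (0.10) and KRT19 (0.02) were among the 3 not called. CDH1, which encodes E-cadherin, was at 29.2, 25.5 and 23.7 CPM with POLR1A depleted, at 70.5, 69.0 and 75.5 CPM with POLR2A depleted and at 86.5 to 98.7 CPM in controls, and EPCAM, another epithelial adhesion protein, was at 113, 111 and 116 CPM against 272, 245 and 263 CPM. ZEB1, a repressor of CDH1, was at 23, 20.9 and 23.4 CPM against 7.83, 6.24 and 9.78 CPM with controls at 3.82 to 4.77 CPM, and VIM, which encodes vimentin, at 5.77, 5.40 and 4.68 CPM against 2.61, 1.68 and 2.18 CPM. Of 9 mesenchymal markers tested 5 were higher and 3 lower, and the lower ones were FN1 (-0.24), SNAI1 (-1.05) and COL3A1 (-4.42). The 14 mesenchymal markers summed to 102 to 103 CPM, 86.0 to 93.2 CPM and 60.3 to 74.4 CPM in the same groups. GALNT3, a glycosyltransferase that starts mucin-type sugar chains, was at 0.762, 0.329 and 1.01 CPM against 12.2, 11.2 and 9.96 CPM with controls at 17.0 to 18.5 CPM. In CDH1, EPCAM and GALNT3 the POLR1A-depleted libraries were thus the low group. They were also low in MAL2 and GRHL2, which were chosen after their values were seen. The intestinal list as a whole was mixed. GALNT3 came from a separate list of GALNT and related glycosylation enzymes. Of 16 tested there (17 members), 8 were higher and 5 lower (median 0.31). The 11 blood cell markers summed to 9.69 to 12.4 CPM, 21.1 to 25.4 CPM and 6.01 to 7.48 CPM, and the integrin gene ITGAM, at 0.163, 0.0469 and 0.289 CPM against 11.1, 12.4 and 7.42 CPM, belonged to the genes nearly silent in controls. The 11 neural markers summed to 111 to 117 CPM in controls, to 206 to 210 CPM when POLR1A was depleted and to 98.8 to 101 CPM when POLR2A was, most of it from the tubulin gene TUBB3. The part of these marker differences in the results above was not tested.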

How the data were processed

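Total RNA was depleted of ribosomal RNA and sequenced with a stranded kit, per the labels' protocols. The authors deposited estimated counts per Ensembl gene, 63241 genes, which need not be whole numbers and were rounded before testing. Of tools, the submitters' processing notes list STAR, RSEM 1.3.3 and HTSeq 2.0.2, with builds GRCh38 and hg38. Strand setting and annotation release: not given in the sources used here. Reads that fit several similar genes are split between them in such estimates, which leaves close copies uncertain.

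Symbols came from a gene name table (62666 identifiers matched), and classes and coordinates from GENCODE 29 (58228 matched). The contrast was fitted with edgeR 4.0.16 in R 4.3.3 on the 6 libraries: filterByExpr (minimum count 10, minimum total count 15), TMM scaling, robust quasi-likelihood with 4 residual degrees of freedom, and a Benjamini-Hochberg adjusted p under 0.05 over the 22108 genes tested. The step was also run on simulated counts in which only a small part of the genes changed. That does not check the scaling where most genes differ, as here. Control CPM were put on the same scale. Library totals ran from 11289094 to 21802217 in the contrast, and intervals and floors cover counting error only.

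Groups came from the sample titles. The members, gene lists and tests were chosen with earlier results of these data known. Lists are described by counts and medians, with no set test, and support nothing by themselves; 1 list and 1 gene are not reported here. Named genes are POLR1A and POLR2A; the 12 highest and 12 lowest protein-coding and 5 highest and 5 lowest non-coding genes by log2 fold change, among called genes that averaged log2 CPM 3 or above and whose groups did not overlap; and in each list up to 4 called members with the largest change. Other names were added as list members or, where said, after their values were seen. Positions near well expressed genes were also examined after the values were seen. Promoter windows came from RefSeq (GRCh38.p14). Alternatives were DESeq2 1.42.0 size factors and its test, library totals, mitochondrial scaling, other filters, a fit of all 12 libraries, a replicate block and leaving out each replicate.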

Additional observations from a re-analysis of the deposited data

How the results depend on the processing

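Under scaling to mitochondrial mRNAs, 11779 genes were higher and 4233 lower in place of 6922 and 7991, and the median over all genes turned from -0.07 to 0.58. With the same scaling the medians of lists turned above 0 for Pol II subunits (0.46), mitochondrial mRNAs (0.21), G1/S genes (0.17), NF-kB targets (0.57), interferon-stimulated genes (0.093), glycolysis enzymes (0.37), intestinal markers (0.46), neural markers (0.27), cytosolic ribosomal proteins (0.32), pseudogenes (0.31), miscellaneous RNAs (0.33) and unverified transcripts (0.10). CDCA5 (0.10), ESCO2 (0.22), NQO1 (0.11) and POLR2A (0.40) turned as well. In a new fit of the genes that passed the filter in controls alone, 5524 were higher and 5650 lower. In that fit the medians turned to -0.052 for Pol I factors, -0.00802 for small nucleolar RNA host genes, -0.017 for chromosome 19 zinc finger genes and 0.76 for blood cell markers, and POLR1A to -0.018. Library totals alone gave 6189 and 8606 and a chromosome 19 zinc finger median of -0.020. Without a filter 7970 were higher and 11106 lower, and the median of the tested genes was 0.013. The DESeq2 test gave 6560 and 8724. Ordered by average level in the 6 libraries in place of controls, the weakest and strongest groups had medians of -1.44 and 0.23. Leaving out 1 library at a time gave 6665 to 6966 genes higher and 7754 to 8098 lower. The replicate block gave 6724 higher and 7631 lower, and MIR663AHG was the only followed gene no longer called under the block (-3.66). Same-numbered libraries did not deviate together (correlations -0.03, -0.04 and -0.03). No pairing by number was thus visible, though 3 libraries per group can show such pairing only weakly. The cause of these shifts was not tested. Scaling by TMM assumes that most genes do not differ, while 67.5% were called, so small differences rest on the scale, and neither absolute RNA per cell nor depletion of the proteins is measured here.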

Other observations

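Mitochondrial ribosomal protein genes, which are encoded in the nucleus, did not share the direction of the cytosolic ones. Of 78 tested, 27 were higher with POLR1A depleted and 18 lower, with a median log2 fold change of 0.05 (0.71 under mitochondrial scaling). MRPS25 was lower, at 43.8, 48.0 and 44.3 CPM against 79.7, 95.9 and 91.7 CPM, and MRPS6 was higher, at 40.9, 42.0 and 40.0 CPM against 20.0, 20.5 and 20.6 CPM. Zinc finger genes named ZNF and located outside chromosome 19 were higher in 127 of 231 tested and lower in 55 (median 0.33), while those on chromosome 19 were higher in 69 of 174 and lower in 55 (median 0.06, which turned to -0.02 with library totals alone). The difference between these sets was not tested. Outside chromosome 19 the share higher, 55.0%, was near the 55.6% of protein-coding genes with 10 CPM or more in controls. Of 11 NF-kB targets tested (15 members) 2 were higher and 3 lower; RELB was at 15.9, 19.6 and 20.2 CPM against 6.35, 5.68 and 9 CPM, and BIRC3 at 6.70, 6.01 and 5.35 CPM against 10.6, 9.67 and 9.78 CPM, both under or near the controls at 17.5 to 18.7 CPM and 21.3 to 28.5 CPM.

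Small RNA classes gave few calls: of 47 small nucleolar RNAs tested 4 were higher and 1 lower, and of 18 small nuclear RNAs 1 was higher and 1 lower. Pseudogenes were higher in 164 of 1970 tested and lower in 621 (median -0.34, and 0.31 under mitochondrial scaling), and their share of counts was 1.12% to 1.16% in controls, 1.03% to 1.06% when POLR1A was depleted and 1.35% to 1.40% when POLR2A was. Over protein-coding genes with 10 CPM or more in controls, the chromosomes had medians from 0.13 on chromosome 19 (630 genes) to 0.39 on chromosome 6 (503 genes), with 0.27 over all 9563.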
